A study of Mus musculus with 5 samples.

Results

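The genes described here are the small nucleolar RNAs (snoRNAs), the microRNA genes and the long transcripts that carry such RNAs, as measured in sorted mouse spleen natural killer (NK) cells with and without Myc. They were taken from the deposited gene table by name, as every symbol that starts with Snord, Snora, Scarna or Snhg, or with Mir and a digit, together with Gas5. This gave 70 of the 13004 listed genes. Of these, 53 are short RNA genes: 19 box C/D snoRNAs, 10 box H/ACA snoRNAs and 24 microRNA genes, with 0 Cajal body RNAs. The other 17 are host transcripts, 13 for snoRNAs and 4 for microRNAs. The members were chosen by symbol. The deposited table held no gene with a mean signal below 2.1, so RNAs below that level could not be members.

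The control group was 3 samples from Mycf/f mice, whose Myc alleles are flanked by recombination sites and whose labels name no Cre. The Myc-deficient group, called MycKO here, was 2 samples from MycΔ/Δ/Ncr1Cre mice, in which Cre is expressed from Ncr1, a gene of NK cells and related innate lymphoid cells. All mice were C57BL/6 and 8 weeks old, and live CD3-NK1.1+DX5+ cells of the spleen were sorted. Cre and loss of Myc go together in these groups and cannot be told apart. The libraries are numbered as in the labels: control 1, 2 and 3 and MycKO 5 and 6. Values given 5 in a row are in that order. The labels do not say whether each sample came from its own mouse, so p-values measure only the spread between these samples.

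Box C/D snoRNAs guide 2′-O-methylation and box H/ACA snoRNAs guide pseudouridylation, mostly of ribosomal RNA. Most vertebrate snoRNAs are cut out of the introns of other genes, many of which encode ribosomal proteins, and many transcripts of the Snhg family are known mainly as their carriers. MicroRNAs are cut in consecutive steps from longer transcripts and direct Argonaute proteins to messenger RNAs. MYC is a transcription factor known to drive genes of ribosome production, among them protein components of snoRNA particles, and it is known to act on several microRNA transcripts.

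The sequences of the snoRNAs that the results turn on are shown first. The snoRNAs in this set carry the short boxes that give the C/D class its name. In the GENCODE vM21 sequences, all 19 box C/D members held CTGA (box D) within their last 20 bases, and 17 of the 19 held TGATG, the core of box C, within their first 20. Both were found in 86.7% of the 98 Snord transcripts of the annotation, in 0 of its 42 Snora transcripts and in 0.155% of 32851 promoter windows of 70 bases, all read on 1 strand. The 4 snoRNAs carried by the ribosomal protein gene Rpl13a, Snord32a (chr7:45127382-45127464), Snord33 (chr7:45126864-45126947), Snord34 (chr7:45126601-45126670) and Snord35a (chr7:45126346-45126435), lie on the minus strand of mm10 (GRCm38) and are given 5′ to 3′ with both boxes in capitals.

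Snord32a: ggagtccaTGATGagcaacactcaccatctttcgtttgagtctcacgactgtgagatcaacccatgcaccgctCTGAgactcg
Snord33: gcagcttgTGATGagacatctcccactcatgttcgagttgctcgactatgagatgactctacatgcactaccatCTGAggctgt
Snord34: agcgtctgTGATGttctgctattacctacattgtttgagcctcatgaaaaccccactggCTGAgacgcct
Snord35a: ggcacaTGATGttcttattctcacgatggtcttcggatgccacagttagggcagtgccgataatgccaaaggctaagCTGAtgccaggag

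Rpl23a carries Snord42a (chr11:78181299-78181363) and Snord4a (chr11:78181686-78181756), also on the minus strand. They are shown because Snord42a passed the test and its neighbour did not.

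Snord42a: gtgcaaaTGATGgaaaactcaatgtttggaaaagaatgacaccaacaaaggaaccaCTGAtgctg
Snord4a: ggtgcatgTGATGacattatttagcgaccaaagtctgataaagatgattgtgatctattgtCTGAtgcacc

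The box H/ACA snoRNAs end in ACA and 3 further bases. ACA stood at that place in 8 of the 9 H/ACA members that have a single annotated sequence, in 83.3% of the 42 Snora transcripts and in 1.67% of promoter windows of 120 bases. Snora33, on the minus strand (chr10:23785347-23785475) inside Rps12, was the H/ACA snoRNA with the smallest p-value. Its terminal ACA is in capitals.

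Snora33: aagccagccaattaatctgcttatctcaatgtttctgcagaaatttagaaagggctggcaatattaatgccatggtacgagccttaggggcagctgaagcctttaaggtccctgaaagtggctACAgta

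RefSeq (GRCm38.p6) lists mature sequences for 22 of the 24 microRNA genes, 32 mature names in all, of 19 to 26 bases. The following are 1 or both arms from Mir6935, which passed the test, from Mir6924, which was next among the lower ones, from Mir3064 and Mir142b, which had many reads, and from Mir25 and Mir7-1, members of widely studied seed families. The other arms listed for Mir3064, Mir25 and Mir7-1 are not shown. Capitals mark the seed, bases 2 to 8.

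mmu-miR-6935-3p: uGUUCUUUgucuuuccacag
mmu-miR-6924-5p: aGAGGAUGgggauuuggcgaagu
mmu-miR-6924-3p: uCCUUAAUccccacccuucag
mmu-miR-3064-5p: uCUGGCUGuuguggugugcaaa
mmu-miR-142b: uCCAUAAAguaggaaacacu
mmu-miR-25-3p: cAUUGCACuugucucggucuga
mmu-miR-7a-5p: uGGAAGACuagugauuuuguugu

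No seed was shared between the microRNA members. Outside the set, the seed of miR-25-3p is that of miR-32-5p, miR-92a-3p, miR-92b-3p, miR-363-3p and miR-367-3p, the seed of miR-7a-5p is that of miR-7b-5p, and the seed of miR-6935-3p is that of miR-7092-3p. Every mature microRNA here is shorter than the 51-base reads, so a read counted in a microRNA gene covers more than the mature RNA, such as its hairpin or the transcript around it. The values below are levels of the gene and not of the mature RNA.

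Reads per library within the listed genes ran from 5451728 in MycKO 5 to 17610826 in control 2. The table gives RPKM, reads scaled by gene length and library size, and whole reads could be worked back from it. Myc itself was 13.0, 23.0, 21.2, 12.5 and 8.70 RPKM, a difference of -0.77 ± 0.28 (SE) on log2(RPKM + 1) with an adjusted p of 0.297 by limma, so it did not pass, although both MycKO libraries were below every control. It is a value for the whole gene, and the deleted stretch was not measured apart. The 10 NK cell markers checked were all present, at a summed 11972 to 13636 RPKM in controls and 9190.4 to 10739 in MycKO. Gzma alone had a mean of 6910 RPKM in controls and 5159 in MycKO. Of the 10 markers, 8 differences were negative and 2 positive, and 0 passed the test. limma-voom on the reads called 3 of them (2.07% of all tested genes). The authors' deposited table called 4 (3.4% of all listed genes). Markers of other cells were higher in MycKO: the 12 myeloid and red pulp macrophage markers summed to 314 to 477 RPKM in controls and 1644 to 1746 in MycKO, and 11 of the 12 passed the test. Summed levels in controls and in MycKO were 14.6 to 33.0 against 119.9 to 176 RPKM for 7 T cell markers, 82.9 to 135 against 334 to 670.2 for 6 B and plasma cell markers, 4.65 to 9.55 against 95.4 to 211 for 6 red cell and platelet markers, and 21.9 to 74.0 against 228 to 551 for 6 neutrophil markers. Of those tested, 3 of 6, 1 of 6, 3 of 6 and 2 of 5 passed in that order, all higher. Over all tested genes, 1.24% were called higher. Single genes made up much of some sums. In MycKO 5 and 6, Jchain gave 232 and 580 RPKM of the B and plasma cell sum. Car1 gave 166 and 69.1 RPKM of the red cell and platelet sum. Their part in the results below was not tested. In such bulk samples, fewer cells of a type and less RNA per cell cannot be told apart.

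The share of each library that these genes took was compared first. The short RNA genes held little of the sequenced RNA: 0.0214% of reads in control 1 (95% exact binomial interval 0.0207 to 0.0222), 0.0152% in control 2 (0.0147 to 0.0158) and 0.0235% in control 3 (0.0227 to 0.0243). In MycKO 5 they took 0.0208% (0.0196 to 0.0221) and in MycKO 6 they took 0.0168% (0.0161 to 0.0175). The MycKO shares lay inside the range of the controls, and control 2 and control 3 were the extremes. These intervals cover counting error only, since PCR copies are not told apart from separate molecules. The 29 snoRNAs alone took 0.00496, 0.00381, 0.00457, 0.00437 and 0.00469% of reads, again with MycKO between the controls.

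Most short RNA genes rested on few reads. Over the 5 libraries they had a median of 67 reads in a median counted length of 82 bp, against 1723 reads for all listed genes and 691 for the hosts. A single read in a gene of 70 bp was worth 0.811 RPKM in control 2 and 2.62 RPKM in MycKO 5, the deepest and shallowest libraries. Of the 265 values of short RNAs, 71 were 0, 13 came from 1 to 3 reads, 41 from 4 to 9 reads and 140 from 10 or more. At least 1 library was at 0 for 39 of the 53 short RNA genes (73.6%), for 3 of the 17 hosts and for 15.1% of all listed genes. Among 3696 longer genes of similar totals (15 to 500 reads, 200 bp or more) that share was 51.5%, against 78% of the 50 short RNA genes in the same range of reads. Control 2, the deepest library, had the most short RNAs at 0, with 21, where the others had 12, 10, 14 and 14. In 16 of the 53, 1 control held over 80% of the control reads, which was true of 0 of the 17 hosts. The plot of reads by library shows these gaps gene by gene.

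**Figure D1:**
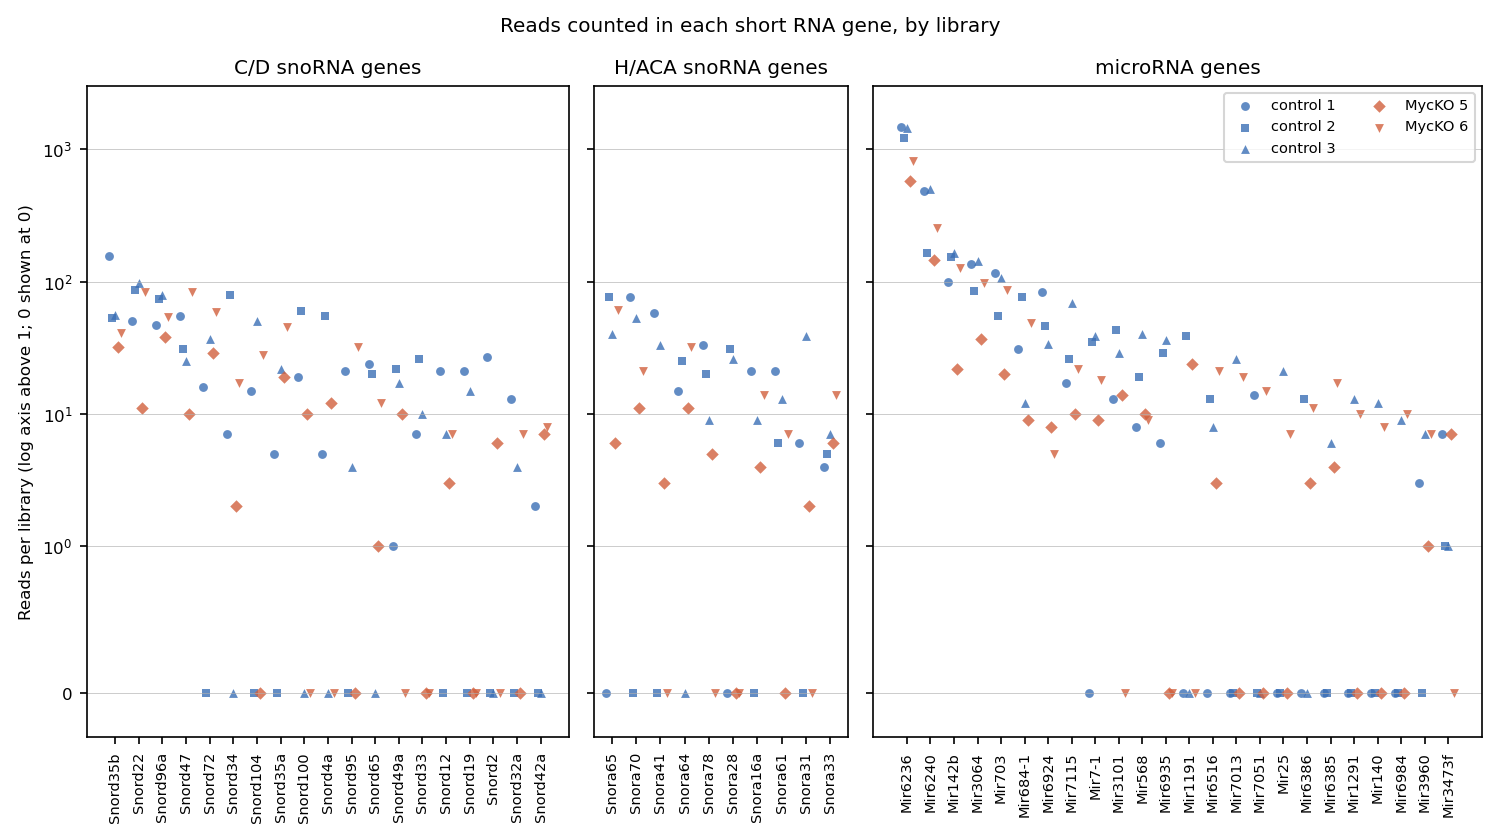
Reads counted in each short RNA gene (vertical axis, logarithmic above 1, with 0 at the bottom) for the 3 control (blue) and 2 MycKO (orange) libraries, genes ordered by total reads within each class. Mir6236 and Mir6240 stand above the rest, and 39 of the 53 genes have at least 1 library at 0.

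Among the box C/D snoRNAs, 1 of 19 was higher and 1 lower in MycKO by the test (limma on log2(RPKM + 1), two-sided, adjusted p under 0.05 over 11190 genes). Among all tested genes 1.24% were called higher and 0.0983% lower. Snord33, a methylation guide held by Rpl13a, had 7, 26, 10, 0 and 0 reads in the 5 libraries, or 5.67, 18, 8.53, 0 and 0 RPKM. It was found in all 3 controls and had no read in either MycKO library, where 0 of 18788812 reads allow up to 3. Its control level was 10.7 ± 6.45 RPKM (SD, n = 3), and MycKO was at least 5.74-fold lower when set at a floor of 3 reads over the group. Such bounds, here and below, cover counting error only and leave out the spread between libraries. The fitted difference was -3.41 ± 0.457 (SE) with an adjusted p of 0.0241 by limma. With both MycKO values at 0, that group added no spread to this error, which was below the short RNA median of 1.01. Snord33 reached 1 RPKM in 2 or more samples, as the test required, only through the controls. Snord42a, held by Rpl23a, had 2, 0, 0, 7 and 8 reads, or 2.95, 0, 0, 28.5 and 13.3 RPKM. It was the other way round, near 0 in the controls and present in both MycKO libraries. The ratio of MycKO to control reads, each over its library totals, was 18.7 with a 95% counting interval of 4.36 to 168.9, since only 2 control reads and 15 MycKO reads were counted. The fitted difference was 3.70 ± 0.655 (SE) with an adjusted p of 0.0484 by limma. Snord42a entered the test only through the MycKO libraries, where it was high. The length counted for Snord42a was 45 bp, shorter than a read and shorter than the 65 bases of the annotated RNA, so its RPKM is a high multiple of its reads. These calls rest on few reads: limma-voom on the reads called 0 of the 53 short RNAs (2.07% of all tested genes) and the authors' deposited table called 0 of them (3.4% of all listed genes). Without control 3, MycKO 5 or MycKO 6, neither of these snoRNAs passed, nor did Mir6935 (adjusted p 0.0857 to 0.348 by limma over the 3 genes), and Snord42a also missed with a pseudocount of 0.1, without a filter and with median-of-ratios scaling (0.0553 to 0.167).

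None of the 5 box C/D snoRNAs with the most reads passed the test. Snord35b, a methylation guide, was at 120.5, 35.0, 45.5, 68.2 and 35.7 RPKM, where control 1 stood well above the other libraries. Its difference was -0.22 ± 0.501 (SE) on the log2 scale with an adjusted p of 0.928 by limma. Snord22, held by Snhg1, was at 26.4, 39.2, 54.4, 16.0 and 49.4 RPKM. MycKO 5 was the lowest of the 5 and MycKO 6 was within the controls, so the groups overlapped. Snord96a, held by the ribosome-bound protein gene Rack1, was at 40.5, 54.6, 71.8, 90.4 and 52.5 RPKM, with MycKO 5 the highest and MycKO 6 among the controls. Snord47, held by Gas5, was at 56.2, 27.1, 26.9, 28.2 and 96.8 RPKM, high in MycKO 6 alone among the MycKO pair. Snord72, held by Rpl37, was at 17.7, 0, 43.1, 88.6 and 73.7 RPKM. Both MycKO values lay above all 3 controls, but the controls ran from 0 to 43.1, and its difference of 3.12 ± 1.37 (SE) had an adjusted p of 0.393 by limma.

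The other C/D members did not pass, and each had no read in 1 or more libraries. Snord19, held by the nucleolar protein gene Gnl3, had 21, 0, 15, 0 and 0 reads and was at least 4.80-fold lower in MycKO by the 3-read floor, yet control 2 was also at 0 and the adjusted p was 0.375 by limma. Snord34 had 7, 79, 0, 2 and 17 reads and Snord100, inside Rps12, had 19, 60, 0, 10 and 0, both mostly from control 2. Snord2, inside the translation factor gene Eif4a2, had 27, 0, 0, 6 and 0 reads and Snord95, inside Rack1, had 21, 0, 4, 0 and 32. Each of these was at 0 in samples of a group whose other samples had reads. Snord104, Snord65, Snord49a, Snord12 and Snord32a had totals of 93, 57, 50, 38 and 24 reads and adjusted p-values of 0.935, 1.000, 0.914, 0.893 and 0.935 by limma. Over all 19, 9 differences were positive and 10 negative, with a median of -0.009.

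No box H/ACA snoRNA passed the test, where 1.34% of all tested genes did, with 5 differences positive, 5 negative and a median of -0.38. An unadjusted p under 0.05 was found for 2 of the 10, Snora33 and Snora28, and for 13.2% of all tested genes. Snora33, a pseudouridylation guide inside Rps12, had 4, 5, 7, 6 and 14 reads, or 2.53, 2.70, 4.66, 10.5 and 9.99 RPKM. It was the only H/ACA member with reads in every library, and both MycKO values lay above the 3 controls, 3.30 ± 1.18 RPKM (SD, n = 3) against 10.2 ± 0.340 RPKM (SD, n = 2). Its difference was 1.42 ± 0.297 (SE) with an adjusted p of 0.0777 by limma, short of the threshold. Snora28, inside the translation factor gene Eif5, had 0, 31, 26, 0 and 0 reads. By the 3-read floor, which covers counting error only, it was at least 7.60-fold lower in MycKO. Control 1 was at 0 as well, and the adjusted p was 0.379 by limma.

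The H/ACA snoRNAs with the most reads were absent from single libraries of both kinds. Snora65, inside Rpl12, was at 0, 37.0, 23.7, 9.32 and 38.7 RPKM, with control 1 at 0. Snora70, inside Rpl10, was at 39.1, 0, 28.7, 15.6 and 12.2 RPKM, with control 2 at 0. Without control 2, its difference turned from 0.48 to -1.22 with an adjusted p of 0.0454 by limma, so 1 library decided its direction. Snora41, inside the elongation factor gene Eef1b2, was at 34.1, 0, 20.4, 4.87 and 0 RPKM and had 91 control reads and 3 MycKO reads. Its ratio of MycKO to control reads, each over its library totals, was 0.0824 (95% counting interval 0.0167 to 0.248), but control 2 had no read and the adjusted p was 0.692 by limma. Snora64, inside Rps2, was at 8.52, 12.1, 0, 17.2 and 20.5 RPKM, with both MycKO values above the controls and an adjusted p of 0.465 by limma. Snora78, inside Snhg9 and opposite Rps2, was at 14, 7.23, 4.01, 5.84 and 0 RPKM, with MycKO 5 inside the range of the controls and MycKO 6 at 0. Snora61, Snora16a and Snora31 had 47, 48 and 47 reads in all, and none passed.

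Among the 24 microRNA genes 1 passed the test and was lower in MycKO, where 0.0983% of all tested genes were called lower. Mir6935 (chr11:120347350-120347413, minus strand) lies inside Actg1, the gene of gamma-actin, in an exon of a noncoding or intron-retaining transcript. It had 6, 29, 36, 0 and 0 reads, or 6.23, 25.7, 39.3, 0 and 0 RPKM. All 3 controls held reads and neither MycKO library did, so that MycKO was at least 9.47-fold lower by the 3-read floor, against 23.8 ± 16.6 RPKM (SD, n = 3). The fitted difference was -4.31 ± 0.660 (SE) with an adjusted p of 0.0327 by limma. With both MycKO values at 0, that group again added no spread to the error, and Mir6935 entered the test only through the controls. Mir6924, in an intron of Acap1, had 83, 46, 34, 8 and 5 reads, or 87.5, 41.4, 37.8, 23.3 and 5.95 RPKM. Every control lay above both MycKO libraries, and its difference was -2.02 ± 0.543 (SE) with an adjusted p of 0.156 by limma. Mir6385 had 0, 0, 6, 4 and 17 reads and lay on the other side, with both MycKO libraries above the controls and an adjusted p of 0.168 by limma.

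Reads of the microRNA genes were concentrated in a pair of them. Mir6236 and Mir6240 together took 55.7% of the 12639 reads of all short RNA genes. Mir6236 was at 791, 559, 817, 852 and 498 RPKM, with MycKO 5 the highest library and MycKO 6 the lowest, and a difference of -0.13 ± 0.251 (SE). Mir6240 was at 273, 80.1, 297, 227 and 163 RPKM, with control 2 well below the rest and a difference of 0.04 ± 0.519 (SE). Neither has a gene on its own strand that contains it in the annotation. With them, the microRNA genes took 0.0165, 0.0114, 0.0189, 0.0165 and 0.0121% of reads, and without them 0.00354, 0.00360, 0.00542, 0.00332 and 0.00404%. In both sums MycKO 6 lay within the controls, and MycKO 5 was below them only in the sum without the pair.

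Mir142b had more reads than any other microRNA gene but those. It lies on the strand opposite Mir142hg, the transcript of the blood cell microRNA miR-142, and was at 57.2, 76.0, 100.4, 35.1 and 82.8 RPKM. The libraries were made to keep strand, but the sources used here do not give whether the counting used it, so reads of Mir142b and Mir142hg cannot be told apart with certainty. Mir3064, inside Ddx5, whose product is a helicase of the microRNA processing complex, was at 134, 72.0, 148, 101 and 109.6 RPKM. Both MycKO values were inside the range of the controls, and its difference was -0.10 ± 0.283 (SE) with an adjusted p of 0.945 by limma. Mir703 was at 71.3, 28.6, 68.0, 33.6 and 59.1 RPKM, likewise within the controls.

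Genes of 3 well-known microRNAs had reads in some libraries only. Mir25, inside Mcm7, had 0, 0, 21, 0 and 7 reads. Mir140, inside Wwp2, had 0, 0, 12, 0 and 8. Mir7-1, in an intron of Hnrnpk, had 0, 35, 39, 9 and 18. The first pair were seen in control 3 and MycKO 6 only, and control 1 had no read of the last. None of the 3 passed. Mir1191 (0, 39, 0, 24 and 0 reads) had a counted length of 48 bp, which is below the read length. Mir684-1 has a counted length of 766 bp, longer than a hairpin, so its 31, 76, 12, 9 and 49 reads can cover more than the microRNA. The remaining microRNA genes, Mir7115, Mir3101, Mir568, Mir6516, Mir7013, Mir7051, Mir6386, Mir1291, Mir6984, Mir3960 and Mir3473f, had 16 to 144 reads each and none passed. Mir7013 had 0, 0, 26, 0 and 19 reads, Mir1291 0, 0, 13, 0 and 10, and Mir6984 0, 0, 9, 0 and 10. These were also seen in control 3 and MycKO 6 only. Mir7051 was seen in control 1 and MycKO 6 only (14, 0, 0, 0 and 15 reads). Why libraries of both groups shared such gaps was not tested. Over the class, 15 of 24 differences were positive, with a median of 0.30.

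Across the 53 short RNA genes, 29 differences were positive and 24 negative, and 3 passed, against 1.34% of all tested genes. The median difference was 0.20, also with the 4 genes without MycKO reads set at their bound, since these lie below the median either way. The median over all tested genes was 0.05. Among tested longer genes of similar totals (15 to 500 reads, 200 bp or more) it was 0.35, and among the short RNAs in that range of reads it was 0.34. The groups did not overlap in 9 of the 53 (17%), with MycKO above in 6 and below in 3, where 29.1% of all tested genes did not overlap, 18.8% above and 10.4% below. With a control at 0, MycKO cannot lie below every control, and 32 of the 53 had a control at 0 beside one with reads. The shares of separated groups therefore cannot be read as a result about the short RNAs. The standard errors of the short RNAs were larger, with a median of 1.01 on the log2 scale against 0.24 over all tested genes and 0.37 for the hosts. Differences ran from -4.31 for Mir6935 to 3.70 for Snord42a, and the plot of fold change against reads shows them beside the read totals.

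**Figure D2:**
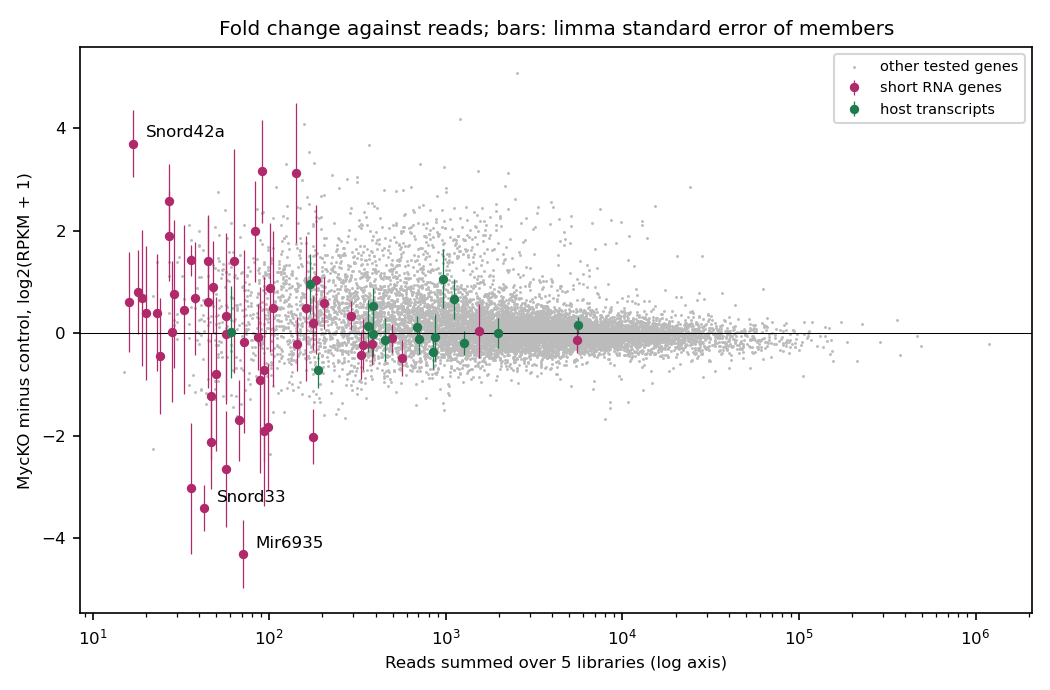
Difference between MycKO and control on log2(RPKM + 1) (vertical axis) against reads summed over the 5 libraries (horizontal, logarithmic) for the 53 short RNA genes (purple) and 16 tested host transcripts (green), each with its limma standard error, over the other tested genes (grey). The 3 short RNAs that passed, Snord42a, Snord33 and Mir6935, have 17, 43 and 71 reads, and the hosts lie between -0.72 and 1.07.

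The genes that hold these short RNAs gave a second measure of the same loci, from many more reads. A gene on the same strand contained 45 of the 53 short RNAs, that is 28 of 29 snoRNAs (all but Snord104) and 17 of 24 microRNA genes. Of the 45, 17 lay in introns only, 25 in an exon of a noncoding or intron-retaining transcript, 2 in an exon of a protein-coding transcript and 1 partly in an exon. For 44 of them the holding gene was in the table, 36 genes in all. The 36 differed by -0.37 to 0.78 between MycKO and control, with a median of -0.08. Of these, 34 were within 0.5 on the log2 scale and 0 were past 1. Of the 44 short RNAs, 16 were within 0.5 and 17 were past 1 in size, and 21 had the sign of their holding gene. The level of the short RNA per length was a median of 10.7% of that of its holding gene, from 0.198% for Snora31 in Tpt1 to 1283% for Mir1191 in BC024978.

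**Figure D3:**
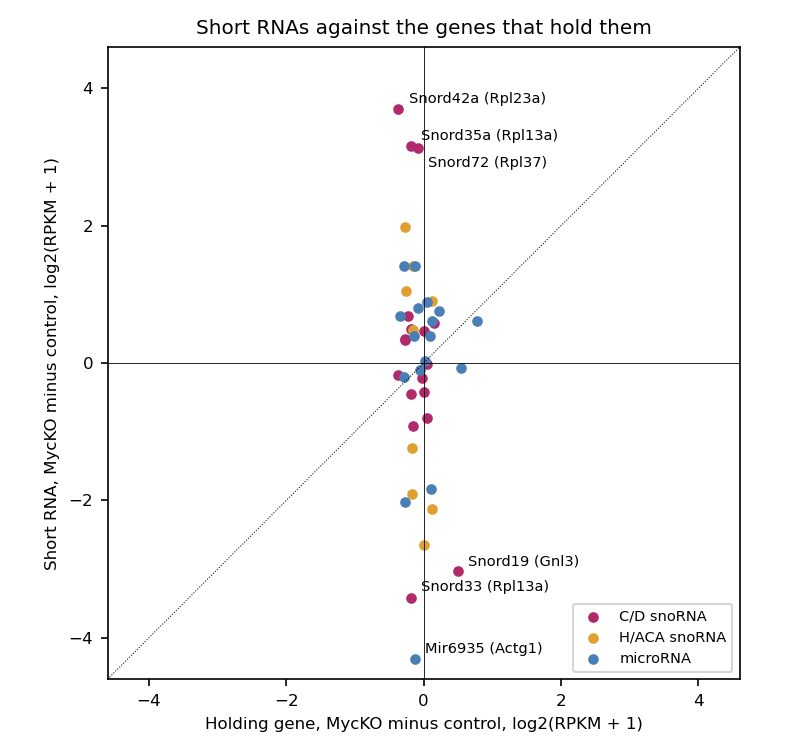
Difference between MycKO and control of 44 short RNA genes (vertical axis) against that of the gene that contains each (horizontal), both on log2(RPKM + 1) and on the same scale, with the dotted line at equal values. The holding genes stay between -0.37 and 0.78 while the short RNAs spread from -4.31 to 3.70.

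Rpl13a, a ribosomal protein gene, was at 1273, 1365, 1226, 1107 and 1149.5 RPKM, and its difference was -0.19 ± 0.108 (SE) with an adjusted p of 0.553 by limma. Both MycKO libraries were slightly below the controls. The 4 snoRNAs inside it, whose sequences are given above, had differences of both signs. Snord32a differed by -0.45 ± 1.13 (SE), Snord33 by -3.41 ± 0.457 (SE), Snord34 by 0.49 ± 1.51 (SE) and Snord35a by 3.16 ± 1.01 (SE). Snord35a had 5, 0, 22, 19 and 45 reads, or 3.73, 0, 17.3, 39.1 and 37.9 RPKM. Both MycKO libraries lay above every control, as opposed to Snord33, and its adjusted p was 0.229 by limma. The mean RPKM of the 4 snoRNAs was 0.336 to 1.63% of that of Rpl13a, over counted lengths of 66 to 89 bp. Reads of the snoRNAs and of the transcript around them were not told apart. Snord33 also lies in an exon of a noncoding or intron-retaining transcript of Rpl13a. The amounts of mature snoRNA were not measured. The plot of these loci sets the snoRNAs beside their genes.

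**Figure D4:**
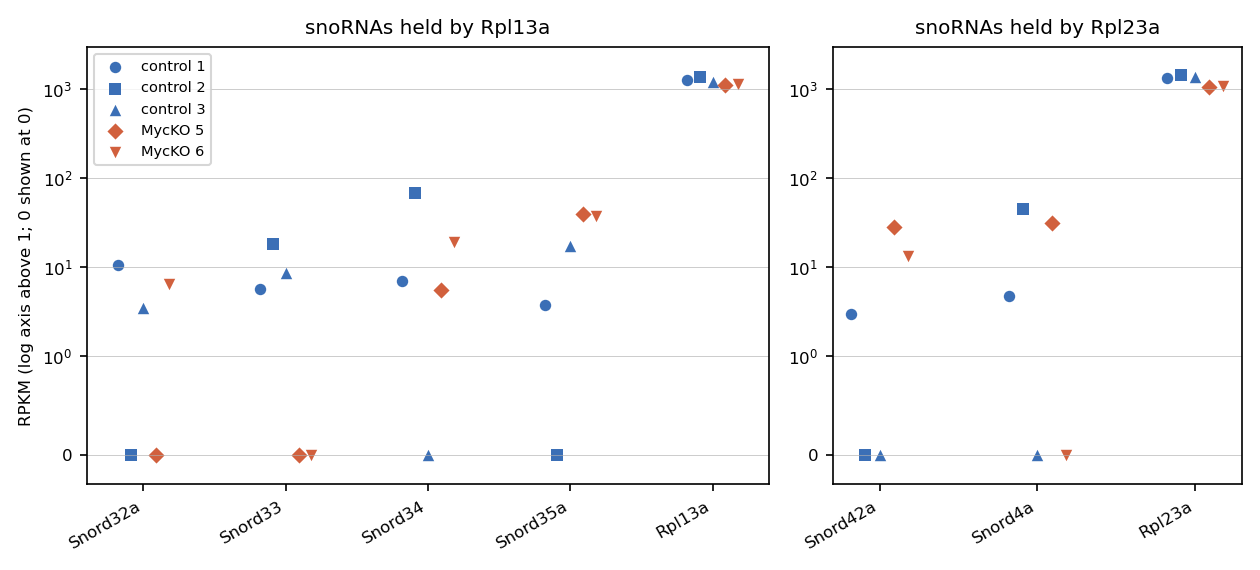
RPKM (vertical axis, logarithmic above 1, with 0 at the bottom) of the snoRNAs held by Rpl13a (left) and Rpl23a (right) and of each holding gene, in 3 control (blue) and 2 MycKO (orange) libraries. The ribosomal protein genes lie far above the snoRNAs in every library, and Snord33 has no read in either MycKO library while Snord35a and Snord42a are highest there.

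Rpl23a was at 1334, 1465, 1394, 1059.6 and 1100.1 RPKM, lower in both MycKO libraries than in any control, with a difference of -0.37 ± 0.107 (SE) and an adjusted p of 0.181 by limma. Snord42a inside it had a positive difference that rested on 17 reads, as described, while Snord4a had 5, 55, 0, 12 and 0 reads and a difference of -0.17 ± 1.78 (SE). Both have Tlcd1 on the opposite strand. Actg1, around Mir6935, was at 1209, 1328, 1119, 1202 and 1028 RPKM, with overlapping groups and a difference of -0.13 ± 0.128 (SE). Bcl2, the survival gene that holds Mir3473f in an intron, was the 1 of the 36 holding genes that passed, where 1.34% of all tested genes did. It was higher in MycKO, at 39.0, 32.5, 36.7, 58.1 and 67.1 RPKM, by 0.78 ± 0.136 (SE) with an adjusted p of 0.0471 by limma. Mir3473f had 7, 1, 1, 7 and 0 reads and did not pass.

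None of the 16 host transcripts tested passed in either direction, and none had an unadjusted p under 0.05. Over all tested genes the shares were 1.34% and 13.2%. limma-voom (2.07% of all tested genes) and the authors' deposited table (3.4% of all listed genes) also called 0 hosts. Positive and negative differences were equal in number, 8 and 8, with a median of 0.01 and a range from -0.72 for Snhg4 to 1.07 for Snhg6. The groups did not overlap in 2 of 16 (12.5%), against the 29.1% of all tested genes. Hosts held 0.0251% of reads in control 1 (95% exact binomial interval 0.0243 to 0.0259), 0.0213% in control 2 (0.0206 to 0.0220) and 0.0263% in control 3 (0.0255 to 0.0272). They held 0.0280% in MycKO 5 (0.0266 to 0.0295) and 0.0247% in MycKO 6 (0.0239 to 0.0256). MycKO 5 was the highest by share and MycKO 6 lay between the controls.

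Gas5, a noncoding transcript first found in growth-arrested cells and host of several C/D snoRNAs, had the most reads of the hosts, 5613, and the smallest error. It was at 34.9, 27.8, 36.1, 39.1 and 34.0 RPKM, 32.9 ± 4.49 RPKM (SD, n = 3) in controls against 36.5 ± 3.63 RPKM (SD, n = 2) in MycKO. The difference of 0.15 ± 0.159 (SE) had an adjusted p of 0.804 by limma, and MycKO 6 lay inside the controls. Snhg1, which carries Snord22, was the highest per length at 83.9, 40.8, 73.8, 70.5 and 56.7 RPKM. Its difference was -0.001 ± 0.288 (SE), with both MycKO libraries inside the range of the controls. Snhg3, a host of H/ACA snoRNAs, was at 48.2, 34.3, 53.5, 31.5 and 48.0 RPKM, with MycKO 5 lowest and MycKO 6 among the controls.

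Snhg6 had the highest positive difference of the hosts and the largest standard error of the 10 most abundant. It was at 8.98, 48.7, 26.3, 42.3 and 56.5 RPKM, with a difference of 1.07 ± 0.577 (SE) and an adjusted p of 0.524 by limma. The controls alone ran from 8.98 to 48.7, and control 2 lay above MycKO 5. Snhg5 was at 19, 7.03, 17.3, 18.5 and 25.6 RPKM, with control 2 lowest, and its difference was 0.67 ± 0.392 (SE). Snhg12, which carries Snora16a and Snora61, was at 13.0, 19.95, 17.3, 17.5 and 18.7 RPKM, and both MycKO libraries fell between control 3 and control 2. Snhg20, which holds Mir6516, was at 16.6, 15, 25.2, 22.0 and 13.0 RPKM. Snhg15 was at 3.37, 15.9, 8.15, 8.98 and 8.48 RPKM and varied more between controls than between groups. Snhg8 was at 11.3, 11.0, 5.61, 12.6 and 5.06 RPKM. Snhg7 was at 10.5, 4.36, 10.7, 11.9 and 5.05 RPKM, and for both of these MycKO 5 was the highest library and MycKO 6 was the lowest or next to it.

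**Figure D5:**
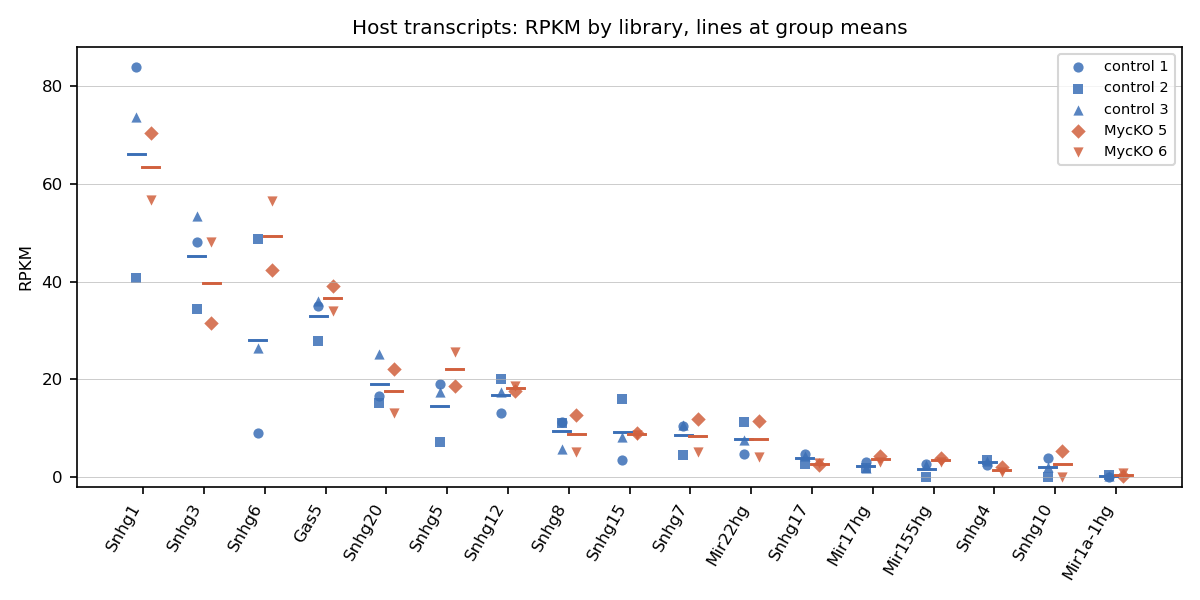
RPKM of the 17 host transcripts (vertical axis, linear) in each of 3 control (blue) and 2 MycKO (orange) libraries, ordered by mean level, with a line at each group mean. Points of the groups overlap for all tested hosts but Snhg4, where MycKO is below, and Mir155hg, where MycKO is above.

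Both hosts with separated groups were low in level. Snhg4 was at 2.37, 3.35, 3.22, 1.91 and 0.977 RPKM, lower in both MycKO libraries, a difference of -0.72 ± 0.342 (SE) with an adjusted p of 0.435 by limma. Mir155hg, the precursor of a microRNA known from activated lymphocytes, was at 2.52, 0, 2.44, 3.92 and 3.03 RPKM, higher in both, a difference of 0.95 ± 0.585 (SE) with an adjusted p of 0.590 by limma. Control 2 had no read of Mir155hg. Mir17hg, the precursor of a microRNA cluster known as a MYC target in other cells, was at 3.10, 1.80, 1.70, 4.15 and 3.04 RPKM, with a difference of 0.54 ± 0.339 (SE) and an adjusted p of 0.605 by limma. MycKO 5 was above all controls and MycKO 6 just below the highest of them. Mir22hg was at 4.66, 11.3, 7.49, 11.4 and 4.07 RPKM, Snhg17 at 4.75, 2.54, 4.28, 2.48 and 2.90 and Snhg10 at 3.89, 0, 1.98, 5.20 and 0, none with an adjusted p under 0.05. Mir1a-1hg, below 1 RPKM in every library, was not tested.

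MYC binds the letters CACGTG among other sites, and these were searched in the RefSeq promoters (250 bases before to 50 after the start, either strand, since the word is its own reverse complement). They were found in 1 of the 15 host genes with a promoter in the table, Snhg15, or 6.67%. Among all 27025 genes with a promoter the share was 8.09%, and among 32 genes that hold short RNAs it was 5, or 15.6%. A match describes the letters in this window only.

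The proteins that act on these RNAs, and further genes that host them, were taken as lists. None of their tested members passed in limma, in either direction, where 1.34% of all tested genes did. An unadjusted p under 0.05 was found for 0 of 4 box C/D proteins, 1 of 4 box H/ACA proteins and 0 of 17 assembly factors. It was found for 2 of 43 protein-coding snoRNA hosts, 1 of 21 microRNA processing genes and 2 of 15 microRNA hosts. Over all tested genes the share was 13.2%. limma-voom (2.07% of all tested genes) and the authors' deposited table (3.4% of all listed genes) called 1 protein-coding snoRNA host each and 0 in the other lists. Of the box C/D particle proteins, 2 of 4 differences were positive and 2 negative. Nhp2l1, which binds the box C/D motif, was at 171, 162, 179, 156 and 143 RPKM, below the controls in both MycKO libraries, a difference of -0.19 ± 0.102 (SE) with an adjusted p of 0.518 by limma. Nop58, a core scaffold protein, was at 38.3, 47.4, 44.9, 54.3 and 44.7 RPKM, with a difference of 0.18 ± 0.149 (SE). Fbl, the methyltransferase, was at 56.6, 76.0, 42.4, 56.3 and 46.4 RPKM with overlapping groups.

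All 4 box H/ACA particle proteins had positive differences, with a median of 0.25. Nop10 was at 58.1, 52.7, 59.7, 75.7 and 68.9 RPKM, above the controls in both MycKO libraries, a difference of 0.34 ± 0.117 (SE) with an adjusted p of 0.260 by limma. Nhp2 was at 19.3, 24.3, 22.0, 27.6 and 27.7 RPKM, also above, a difference of 0.33 ± 0.153 (SE) with an adjusted p of 0.426. Dkc1, the pseudouridine synthase, was at 21.8, 28.6, 24.6, 29.8 and 26.5 RPKM with overlapping groups. Of 17 assembly factors, 14 differences were positive and 3 negative, with a median of 0.25, beside 0.05 over all tested genes. Ruvbl1 and Ruvbl2, a pair of ATPases of the assembly machinery, differed by 0.28 ± 0.149 (SE) and 0.40 ± 0.237 (SE), with adjusted p-values of 0.511 and 0.575 by limma.

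The list of 43 protein-coding snoRNA hosts also holds Snhg7, a host transcript described above. Over the list, 12 differences were positive and 31 negative, with a median of -0.16. Rps24 was at 1252, 1423, 1195, 898 and 974 RPKM, below the controls in both MycKO libraries, a difference of -0.46 ± 0.121 (SE) with an adjusted p of 0.146 by limma. It passed in limma-voom, with an adjusted p of 0.0468, and was the 1 gene of the list to do so. It was also the 1 gene of the list called in the authors' deposited table. Rpl23a, described above, had the next smallest p. The groups did not overlap in 19 of the 43 (44.2%), 18 of them with MycKO below, where 29.1% of all tested genes did not overlap and 10.4% had MycKO below. The medians of this list and of the assembly factors had opposite signs.

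Of 21 microRNA processing and silencing genes tested, 6 differences were positive and 15 negative, with a median of -0.09. Dgcr8, the RNA-binding partner of Drosha in the first cut, was at 13.1, 12.2, 12.4, 7.42 and 8.55 RPKM. Both MycKO libraries were below every control, a difference of -0.60 ± 0.190 (SE), with an adjusted p of 0.226 by limma. Drosha itself was at 11.9, 11.6, 14.6, 13.8 and 11.1 RPKM and Dicer1, the enzyme of the next cut, at 13.3, 14.5, 15.6, 13.2 and 13.7, both with a difference near 0. Zcchc11, which adds uridines to microRNA precursors, was at 51.3, 49.5, 58.6, 41.6 and 46.1 RPKM, below the controls in both MycKO libraries, a difference of -0.27 ± 0.129 (SE) with an adjusted p of 0.439 by limma. Of 15 tested genes on the list of microRNA hosts, which includes the Mir155hg, Mir17hg and Mir22hg described above, 7 differences were positive and 8 negative. Dnm2 was at 58.4, 56.5, 53.7, 44.1 and 45.6 RPKM and Mirt1 at 19.1, 22.4, 26.5, 16.3 and 15.5, both below the controls in each MycKO library, a difference of -0.32 ± 0.112 (SE) and -0.48 ± 0.180 (SE), with adjusted p-values of 0.282 and 0.319 by limma.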

How the data were processed

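RNA of sorted spleen NK cells (3 control and 2 MycKO samples) was sequenced from strand-keeping libraries as single 51-base reads after 8 PCR cycles, per the labels' protocols. TopHat, edgeR and mm10 are named in the submitters' processing notes, without a role. The sources used here do not give the annotation, the counting or its use of strand. Per the file headers, the authors deposited RPKM per sample, mean normalized signal, a ratio (fold change) with its log2 value, and p-values and adjusted p-values. The lowest mean signal in the deposited table was 2.1.

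RPKM values and the authors' means gave back whole reads for 100% of values (within 0.0001), from 5451728 to 17610826 per library. The main test was limma 3.58.1 (R 4.3.3) with a variance trend on log2(RPKM + 1), over the 11190 genes that reached 1 RPKM in 2 or more samples, two-sided, with Benjamini-Hochberg adjustment at 0.05. Low genes' changes are understated by the pseudocount of 1. Reads were tested with limma-voom as an alternative. Both fits were checked on simulated reads, with changes planted only in genes with more reads than most short RNAs have. The simulated spread between libraries was also smaller than that of most short RNAs. The check therefore does not cover most of the short RNAs. Other pseudocounts, filters, scalings, a stricter threshold and left-out replicates were fixed as alternatives. The authors' p-values were added after seeing the data. Holding genes and snoRNA sequences came from GENCODE vM21, and microRNA and promoter sequences from RefSeq (GRCm38.p6).

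Named genes were the members that passed, the 5 with the most reads per short class, the 10 highest hosts, Myc, the 2 smallest p-values per list and the holding genes, 1 of which is not reported here. Further members were picked for naming with their values in view. Members and lists were chosen with earlier results of these data known.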

Additional observations from a re-analysis of the deposited data

How the results depend on the processing

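No paired analysis was possible because the groups share no replicate numbers (1, 2 and 3 against 5 and 6). Of all genes, 150 passed. The count was 80 with a pseudocount of 0.1, 232 with limma-voom, 24 at an adjusted p under 0.01, 442 in the authors' deposited table and 34 to 217 with 1 replicate left out. Of the short RNAs, 3 passed: 0 did with limma-voom, 0 at 0.01, 0 in the authors' deposited table and 0 to 5 with 1 replicate left out. Snord33 and Mir6935 were called with each other pseudocount, filter and scaling tried, and Snord42a with none of these (adjusted p 0.0553 to 0.167 by limma, and left out by the filter on reads). Without control 3, MycKO 5 or MycKO 6 none of the 3 passed. Without control 1, Snora28 passed too, without control 2 Mir6386, Snora70 and Snord19 did but not Snord42a, without control 3 only Mir6385 and without MycKO 5 only Mir3101. A group left with 1 MycKO sample is assumed to vary like the controls. No host passed under any setting. Rps24 did not pass in limma, and passed with limma-voom and in the authors' deposited table.

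Of 499 alternative values of single genes, 449 kept their direction and their side of the threshold, and 33 changed sign. Median-of-ratios scaling, which moved the median of all genes by -0.049, gave -0.0112 for Mir6240, and limma-voom gave 0.0556 for Mir703. With 1 replicate left out, these log2 differences changed sign, over the ranges Ddx5 -0.10 to 0.00302, Mir142b -1.09 to 0.12, Mir3064 -0.42 to 0.0997, Mir6236 -0.51 to 0.26, Mir6240 -0.56 to 0.37, Mir703 -0.63 to 0.18, Snhg1 -0.31 to 0.20, Snhg12 -0.0367 to 0.25, Snhg15 -0.36 to 0.62, Snhg20 -0.48 to 0.24, Snhg3 -0.49 to 0.11, Snhg7 -0.56 to 0.52, Snhg8 -0.71 to 0.46, Snora65 -0.60 to 2.03, Snora70 -1.22 to 1.44, Snord22 -1.21 to 0.36, Snord35b -0.68 to 0.30, Snord47 -0.28 to 1.46 and Snord96a -0.0431 to 0.73. Of the 265 values of short RNAs, 71 had no read, and a count of 0 allows up to 3 reads. The RPKM of genes shorter than a read, Snord42a and Mir1191, depends on a counted length that no full read fits.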
